A study of Homo sapiens and Mus musculus with 12 samples.

Results

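The peaks of SPDEF and GATA6 around 7 other genes of the ETS family were examined: ELF3, EHF, ELF5, ETS1, ETS2, ETV6 and ERG. Members were all peaks sharing at least 1 bp with a gene or the 50 kb on either side of it in hg19, the human build of the files, with gene ends given to 1 kb. There were 8 such peaks among 2775 in the SPDEF list and 20 among 10670 in the GATA6 list. The rule used gene positions and no property of a peak, but the genes were chosen with earlier results of these data known.

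The lists came from HPAF-II, an established human pancreatic ductal adenocarcinoma (PDA) cell line, carrying HA-tagged human SPDEF in every library of the line. Chromatin was profiled by CUT&RUN, in which an antibody directs a nuclease to its target and the released fragments are sequenced. SPDEF was targeted through the HA tag in 3 libraries and GATA6 with its own antibody in 3 others, beside 1 IgG and 1 H3K4me3 library. The series also holds 4 libraries of a mouse PDA line, FC1245, not used here. Each factor has 1 peak list of positions without a score, so no value has replicate error, the depth is unknown, and no test between samples could be made. The GATA6 list describes cells that also carry the tagged SPDEF. The files hold no expression values, so the cell type is given as labelled and whether any of the 7 genes was expressed is unknown.

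ETS factors share a DNA-binding domain that contacts a GGAA or GGAT core, and most read the flanking bases in similar ways. SPDEF, itself an ETS factor of secretory epithelia, is known for accepting GGAT. ELF3, EHF and ELF5 are the epithelial branch of the family, active in differentiated epithelium of gut, airway, pancreas duct or breast. ETS1 and ETS2 are activators that respond to RAS and MAPK signalling, ETV6 is a repressor best known from blood, and ERG is a factor of endothelium and blood stem cells. GATA6 is a zinc-finger factor that marks classical PDA.

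The peak lists could not be read as DNA, since no hg19 sequence was used, but the RefSeq promoters of the genes with a peak at or beside their start can be shown. RefSeq (GRCh38.p14, plus strand for all 3 genes) had entries for 6 of the 7 genes and 11 entries in all, and for ETS1 none was matched. The 250 bases before each start follow, 5′ to 3′, for ELF3 (chr1:202010337-202010586), for both EHF entries (chr11:34624007-34624256 and chr11:34632316-34632565) and for ETV6 (chr12:11649424-11649673). They are shown because GATA6 peaks lay at the starts of the listed extents of these genes, joined at ETV6 by an SPDEF peak. Capitals mark the motifs searched on both strands, which were the ETS cores CCGGAA and CCGGAT and the GATA motif AGATAA.
ELF3: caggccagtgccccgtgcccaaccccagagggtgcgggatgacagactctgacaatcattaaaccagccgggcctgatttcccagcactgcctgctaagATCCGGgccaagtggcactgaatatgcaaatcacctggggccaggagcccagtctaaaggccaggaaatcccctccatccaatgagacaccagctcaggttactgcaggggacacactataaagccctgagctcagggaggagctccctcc
EHF first entry: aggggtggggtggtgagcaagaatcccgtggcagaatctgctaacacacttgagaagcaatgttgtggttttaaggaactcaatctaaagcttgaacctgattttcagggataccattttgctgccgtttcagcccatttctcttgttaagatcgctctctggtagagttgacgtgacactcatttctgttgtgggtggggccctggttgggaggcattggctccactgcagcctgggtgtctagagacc
EHF second entry: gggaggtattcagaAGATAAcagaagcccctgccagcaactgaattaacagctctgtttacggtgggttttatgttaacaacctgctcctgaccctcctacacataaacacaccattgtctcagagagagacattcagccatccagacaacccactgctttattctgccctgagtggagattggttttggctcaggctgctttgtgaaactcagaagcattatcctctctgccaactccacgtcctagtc
ETV6: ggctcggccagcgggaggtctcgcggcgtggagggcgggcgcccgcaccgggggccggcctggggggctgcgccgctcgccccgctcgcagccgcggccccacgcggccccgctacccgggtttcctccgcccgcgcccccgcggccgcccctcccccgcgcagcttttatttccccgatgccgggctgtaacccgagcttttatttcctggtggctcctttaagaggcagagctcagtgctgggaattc

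In these stretches CCGGAT occurred once, on the minus strand of the ELF3 promoter at position -151 from the start, a motif held by 5.85% of 35116 RefSeq promoters of the same length. AGATAA occurred once in the second EHF entry, at position -236, a motif held by 9.17% of promoters. Over all 11 entries AGATAA occurred in 4, the others being 1 of ETS2 and 2 of ERG, a gene with 0 GATA6 peaks. The 2 ERG matches lay on the same strand, at -82 and -109, and may be the same site. Whether entries of a gene overlap was not checked, so the 11 entries are not independent counts. CCGGAT occurred in 1 of 11 and CCGGAA, held by 14.5% of promoters, in 0. The ETV6 stretch held none of the 3 motifs searched, though GGAA with other flanking bases occurs in it. It had a GC content of 74.4%, against 58.4% for ELF3 and 47.6% for the second EHF entry. A match here is a run of letters and not a measured site. The builds differ, so a peak cannot be placed on these letters. Which EHF entry, if either, belongs to the listed start is not known, nor whether the listed ELF3 start is that of the promoter shown. The EHF stretches end at 34624256 and 34632565, so at most 1 of them can lie at the listed start.

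SPDEF peaks lay near 3 of the 7 genes and GATA6 peaks near 5. ELF3 had 4 SPDEF and 8 GATA6 peaks, and EHF had 3 and 5, so that these 2 epithelial factors held 7 of the 8 SPDEF peaks and 13 of the 20 GATA6 peaks. ETV6 had 1 SPDEF and 2 GATA6 peaks. ETS1 had 2 and ETS2 had 3 GATA6 peaks, with 0 SPDEF peaks at either. The third epithelial factor, ELF5, and ERG had 0 peaks in both lists.

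**Figure D1:**
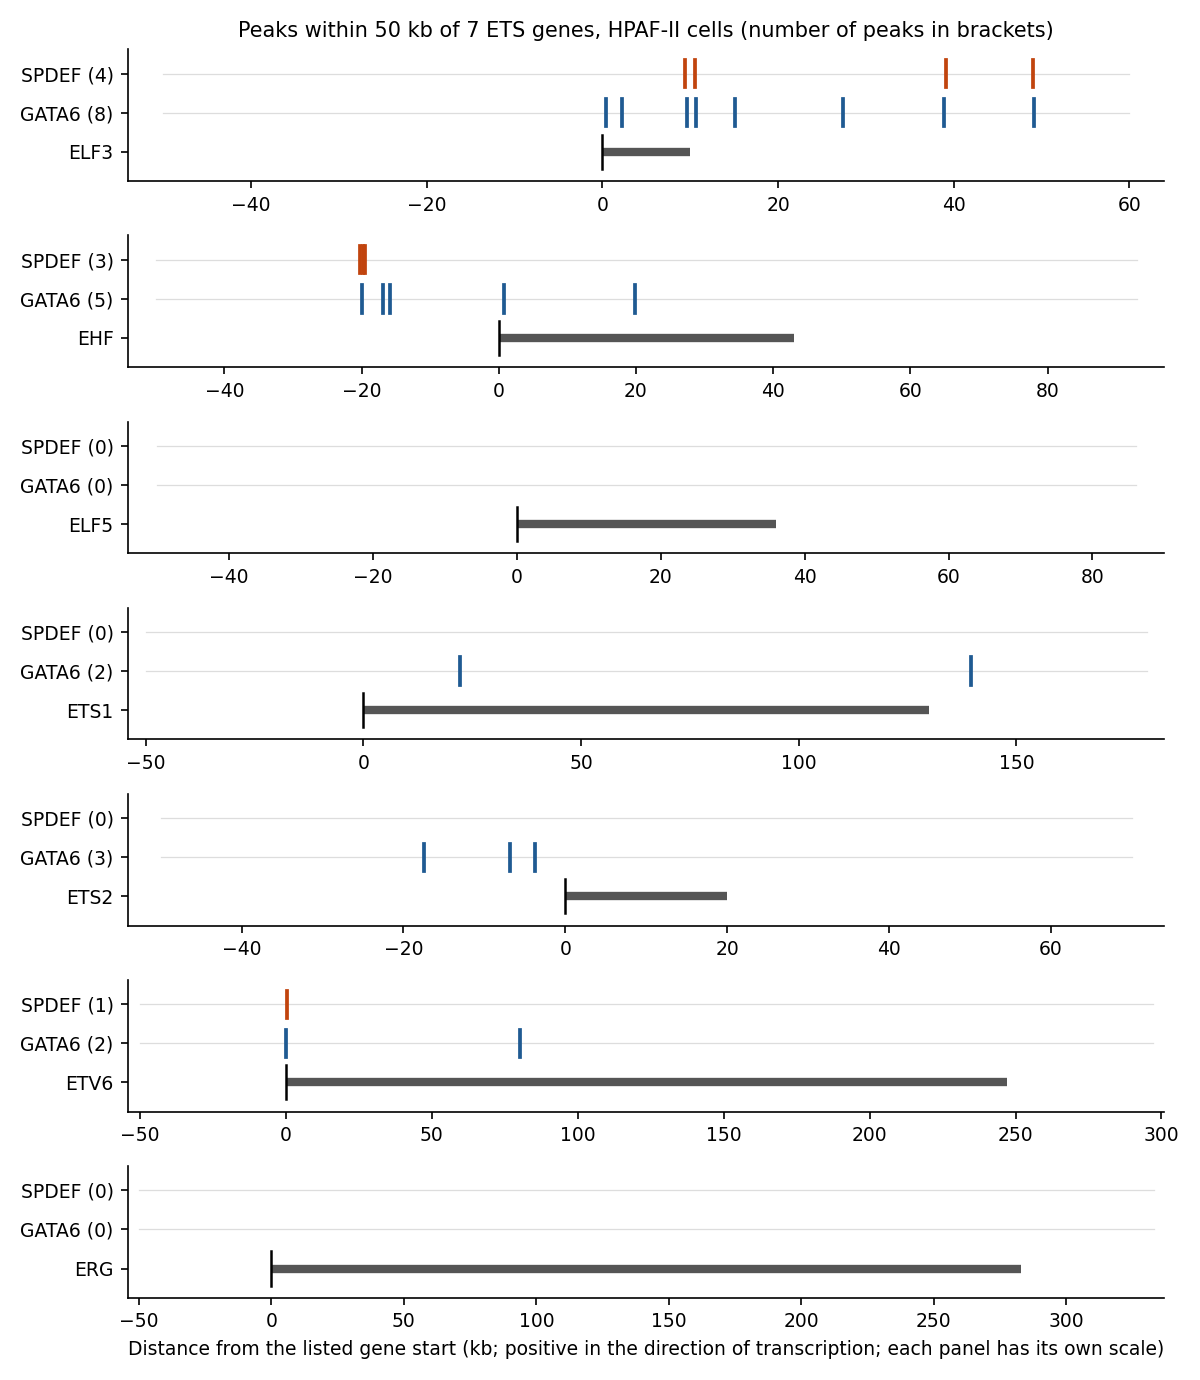
Each panel shows 1 gene (grey bar, with its listed start at 0), the SPDEF peaks in the upper row and the GATA6 peaks in the middle row, against distance from the listed start in kb, positive in the direction of transcription. All 4 SPDEF marks of ELF3 stand above a GATA6 mark, those of EHF form 1 block about 20 kb upstream, and the ELF5 and ERG panels hold 0 marks.

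ELF3, an ETS factor of epithelial differentiation, lies in 1q32.1 (chromosome 1, 201977 to 201987 kb, plus strand). Its SPDEF peaks lay in the last part of the gene and downstream of it, and 0 lay upstream. A peak of 537 bp (201986115 to 201986651) was inside the gene, 0.349 kb before its listed end. The next, of 689 bp (201987242 to 201987930), began 0.242 kb past that end and was wider than or as wide as 92.4% of SPDEF peaks. The other two, of 407 bp (202015907 to 202016313) and 174 bp (202025973 to 202026146), lay 28.9 and 39.0 kb past the end.

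Each of these 4 SPDEF peaks overlapped a GATA6 peak. The 689 bp peak lay whole inside a GATA6 peak of 1486 bp (201986899 to 201988384), the widest near ELF3, with 97.7% of the GATA6 list no wider. The 537 bp peak shared 155 bp, or 28.9% of its width, with a GATA6 peak of 280 bp (201986497 to 201986776). Both pairs together lay within 2270 bp around the gene's end. Farther down, the 407 bp peak shared 83.5% of its width with a GATA6 peak of 582 bp (202015665 to 202016246), and the 174 bp peak lay whole inside one of 659 bp (202025887 to 202026545).

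The other 4 GATA6 peaks near ELF3 had no SPDEF peak. A pair stood at the start of the listed extent, which may not be the start of the RefSeq transcript, at 0.0190 kb (201977019 to 201977697, 679 bp) and 1.91 kb (201978914 to 201979573, 660 bp) inside it, 8.42 and 6.54 kb from the nearest SPDEF peak. The remaining 2, of 179 and 323 bp, lay 5.02 and 17.2 kb past the gene's end. At ELF3, then, GATA6 peaks stood at both ends of the gene and SPDEF peaks at the far end and beyond it. The region on the upstream side was bare: the nearest GATA6 peak there was 546 kb and the nearest SPDEF peak 1338 kb from the gene. RNPEP and GPR37L1 are the protein-coding neighbours of ELF3 in the RefSeq gene order, and peaks were not assigned between ELF3 and its neighbours.

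EHF, a close relative of ELF3 that is likewise epithelial, lies in 11p13 (chromosome 11, 34642 to 34685 kb, plus strand). All 3 of its SPDEF peaks lay upstream and within 905 bp of each other, at 34621653 to 34621943 (291 bp), 34622229 to 34622241 (13 bp) and 34622463 to 34622557 (95 bp). They were 20.1, 19.8 and 19.4 kb from the listed start, with gaps of 285 and 221 bp. All 3 lay whole inside 1 GATA6 peak of 1534 bp (34621326 to 34622859), the widest GATA6 peak near any of the 7 genes, with 98.1% of the list no wider. A GATA6 peak overlapping 3 or more SPDEF peaks was rare, with 7 such peaks in the whole list (0.0656%), the one at EHF included, against 102 overlapping at least 2.

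The SPDEF peaks of 13 and 95 bp were narrow. Only 0.721% of the SPDEF list was no wider than 13 bp, and 4.54% no wider than 95 bp. Neither the labels nor the file says how peaks this short arose. Counted without peaks under 100 bp, EHF kept 1 SPDEF peak, and the 3 peaks together mark 1 place of 905 bp.

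The other 4 GATA6 peaks near EHF had no SPDEF peak. Peaks of 982 bp (34624625 to 34625606) and 282 bp lay 16.4 and 15.7 kb upstream, 2.07 and 3.44 kb from the nearest SPDEF peak. A peak of 426 bp (34642620 to 34643045) began 0.620 kb inside the listed start, and one of 378 bp lay inside the gene at 19.6 kb. SPDEF was not listed at the EHF start, from which its nearest peak was 19.4 kb away.

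**Figure D2:**
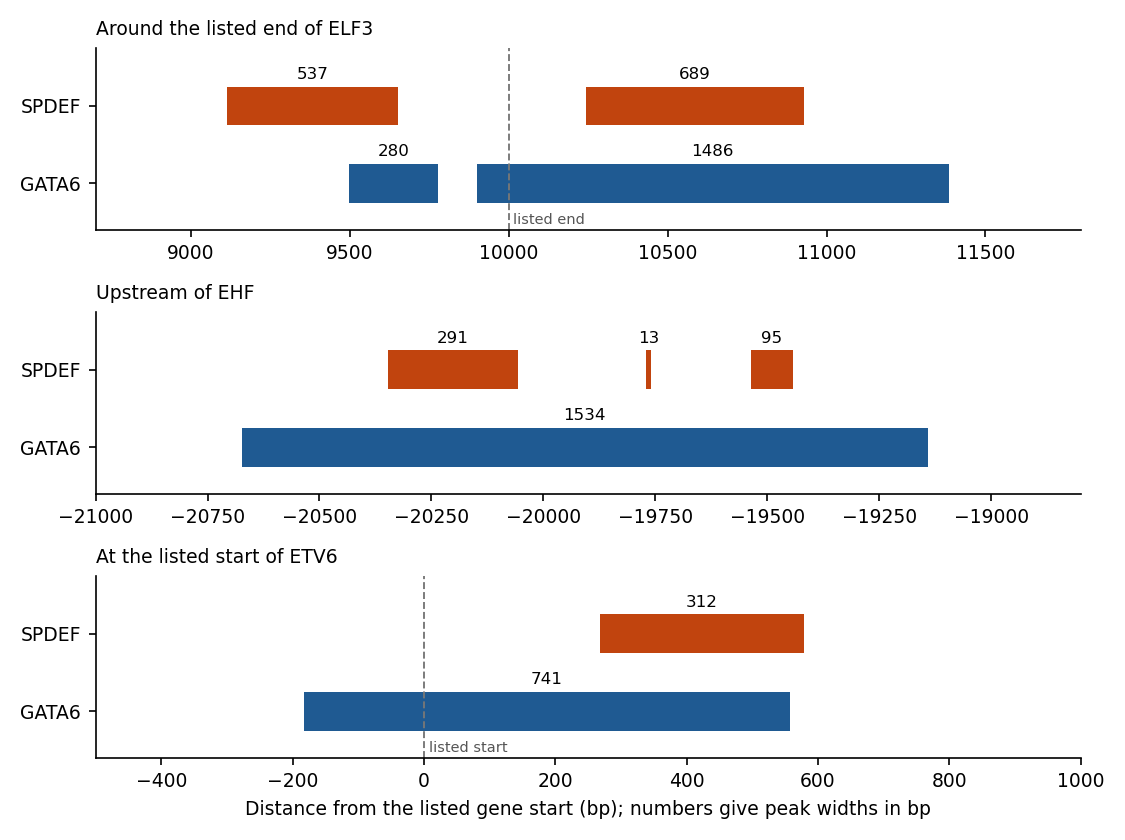
Extents of SPDEF peaks (upper bars) and GATA6 peaks (lower bars) around the listed end of ELF3, upstream of EHF and at the listed start of ETV6, by distance from the listed gene start in bp, with peak widths in bp above the bars. At EHF the 3 SPDEF peaks of 291, 13 and 95 bp lie inside 1 GATA6 peak of 1534 bp, and at ELF3 the 537 bp SPDEF peak shares only its right-hand part with a GATA6 peak.

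ELF5, the third epithelial member, is the neighbour of EHF on chromosome 11 (34500 to 34536 kb, minus strand). It had 0 peaks in either list within 50 kb. Its nearest peaks in both lists were those upstream of EHF, 85.7 kb (SPDEF) and 85.3 kb (GATA6) from ELF5, on the side of its start. That place lies between the starts of both genes and is nearer to EHF. With 100 kb on either side ELF5 counted the 3 SPDEF peaks of that place and 5 GATA6 peaks, which lay on both sides of the gene, the nearest on the far side at 98.6 kb.

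ETV6, an ETS repressor, lies in 12p13.2 (chromosome 12, 11802 to 12049 kb, plus strand) and was the single member with an SPDEF peak at its listed start. That peak, of 312 bp (11802268 to 11802579), began 0.268 kb inside the start and shared 290 bp, or 92.9% of its width, with a GATA6 peak of 741 bp that ran across the start (11801817 to 11802557). The listed start is rounded to 1 kb, so the order of start and peak edges is uncertain at that scale. The second GATA6 peak of ETV6, of 241 bp, lay 80.2 kb inside the gene. The next SPDEF peaks lay 1285 kb before and 908 kb after the gene, and the next GATA6 peaks 478 and 508 kb.

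ETS1 and ETS2, the activators downstream of RAS and MAPK signalling, had GATA6 peaks alone. ETS1 (chromosome 11, 128328 to 128458 kb, 11q24.3, minus strand) had a GATA6 peak of 734 bp (128435512 to 128436245) 21.8 kb inside its start and one of 270 bp (128318262 to 128318531) 9.47 kb past its end. Its nearest SPDEF peak was 248 kb away, although its band held 10 SPDEF peaks. ETS2 (chromosome 21, 40177 to 40197 kb, 21q22.2, plus strand) had all 3 GATA6 peaks upstream. Their widths were 1254 bp (40158995 to 40160248), 816 bp and 283 bp (40173065 to 40173347), at 16.8, 6.46 and 3.65 kb from the listed start, and 95.7% of the GATA6 list was no wider than the first. The nearest SPDEF peak was 808 kb from ETS2.

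ERG is the neighbour of ETS2 on chromosome 21 (39751 to 40034 kb, minus strand) and had 0 peaks in either list over 383 kb. A GATA6 peak of 347 bp (39695932 to 39696278) lay 54.7 kb from its end, just outside the 50 kb limit, and with 100 kb on either side ERG counted 2 GATA6 peaks. Its nearest SPDEF peak was 814 kb away. The widest ETS2 peak lay 125 kb from the start of ERG and 16.8 kb from that of ETS2.

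Over the 7 genes, 8 of 8 SPDEF peaks overlapped a GATA6 peak by at least 1 bp (95% Wilson interval 67.6% to 100%), against 64.7% of the whole SPDEF list. The 8 peaks share 6 GATA6 peaks and are not independent. Of the 20 GATA6 peaks, 6 carried an SPDEF peak (95% Wilson interval 14.5% to 51.9%), against 16.1% of the whole list. The share of the whole list lies inside the interval of the 7 genes for GATA6 and just below it for SPDEF. The SPDEF interval counts the 8 peaks as independent and is therefore too narrow, so it cannot decide whether the SPDEF shares differ. When at least 50% of both peaks had to be covered, 1 of 8 SPDEF peaks was shared (12.5%), against 31.1% of the list, and that was the 407 bp peak of ELF3. The GATA6 peaks that SPDEF peaks overlapped were mostly wider than they. Of the 8 SPDEF peaks, 5 lay whole inside one (62.5%), close to the 58.9% of overlapping SPDEF peaks in the list. At EHF, 3 of these 5 lay in the same GATA6 peak. The midpoints of overlapping peaks were a median of 196 bp apart near the 7 genes, against 86.0 bp over the list.

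Read by position, 4 of the 20 GATA6 peaks lay within 2 kb of a listed start, 6 upstream, 5 inside a gene and 5 downstream. For SPDEF, 1 of 8 lay within 2 kb of a start, 3 upstream, 1 inside and 3 downstream. The GATA6 peaks at starts belonged to ELF3 (2), EHF (1) and ETV6 (1), and the SPDEF peak to ETV6. These positions depend on which start is meant, as with the 2 of ELF3, and on gene ends rounded to 1 kb. The 1486 bp GATA6 peak of ELF3, counted as inside, ran across the listed end.

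The median width of SPDEF peaks was 301.5 bp near the 7 genes (13 to 689 bp), against 268 bp over the list. GATA6 peaks had a median of 620.5 bp near the 7 genes (179 to 1534 bp), against 346 bp over the list, with 0 of 20 under 100 bp, against 2.99% of the list. The 6 GATA6 peaks that carried an SPDEF peak had a median of 700 bp and the 14 without one 402 bp, against 494 and 326 bp in the list. Medians near EHF were 95 bp for its 3 SPDEF peaks, and near ELF3 472 bp for its 4.

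**Figure D3:**
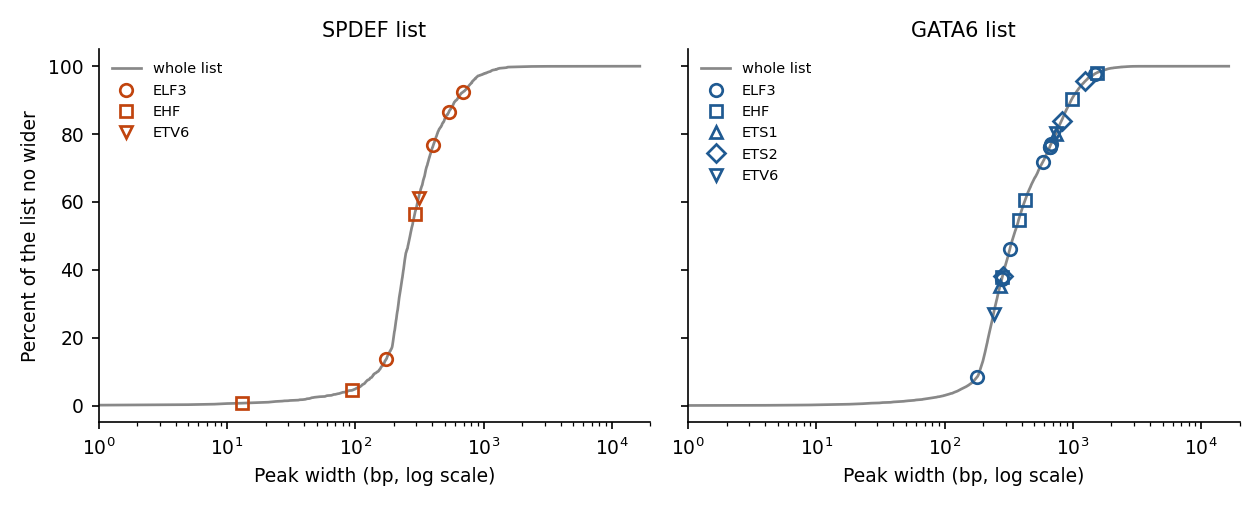
Width of each peak near a member gene (symbols by gene) against the percent of its list that is no wider, for SPDEF (left panel) and GATA6 (right panel), with the whole list as a grey line and width on a log scale. The 13 and 95 bp SPDEF peaks of EHF sit at the narrow end, and the 1534 bp GATA6 peak of EHF and the 1486 bp peak of ELF3 near the wide end.

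Peaks were denser around ELF3 and EHF than over the genome. In the 7 windows, 1.469 Mb in all, there were 5.45 SPDEF peaks per Mb, against 0.912 per Mb over chromosomes 1 to 22 and X (ratio 5.97, exact 95% Poisson interval 2.58 to 11.8). For GATA6 there were 13.6 per Mb, against 3.51 (ratio 3.88, 2.37 to 5.99). These ratios rest on ELF3 and EHF: without them the ratios were 0.902 for SPDEF, from 1 peak, and 1.64 for GATA6, from 7 peaks. The third epithelial gene, ELF5, had 0 peaks in both lists. ETS2 was also above the genome for GATA6 (ratio 7.12, 1.47 to 20.8). Peaks cluster and are not independent, and the intervals cover counting error alone, not the choice of genes. Other genes were not measured in the same way, since hg19 positions were at hand for these 7 only.

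By gene, SPDEF density was highest at ELF3, with 36.4 peaks per Mb (9.91 to 93.1), followed by EHF with 21.0 (4.33 to 61.3) and ETV6 with 2.88 (0.0730 to 16.1). For the 4 genes with 0 SPDEF peaks the upper limits were 9.63 per Mb at ERG, 16.0 at ETS1, 27.1 at ELF5 and 30.7 at ETS2. Among 21 pairs of genes the intervals were apart in 1, ELF3 over ERG, so most of this order is not resolved by counts this small. GATA6 density was 72.7 per Mb at ELF3 (31.4 to 143), 35.0 at EHF (11.4 to 81.6), 25 at ETS2 (5.16 to 73.1), 8.70 at ETS1 (1.05 to 31.4), 5.76 at ETV6 (0.698 to 20.8) and 0 at ELF5 and ERG. Intervals were apart in 4 of 21 pairs, ELF3 over ETV6, ELF5 and ERG, and EHF over ERG.

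**Figure D4:**
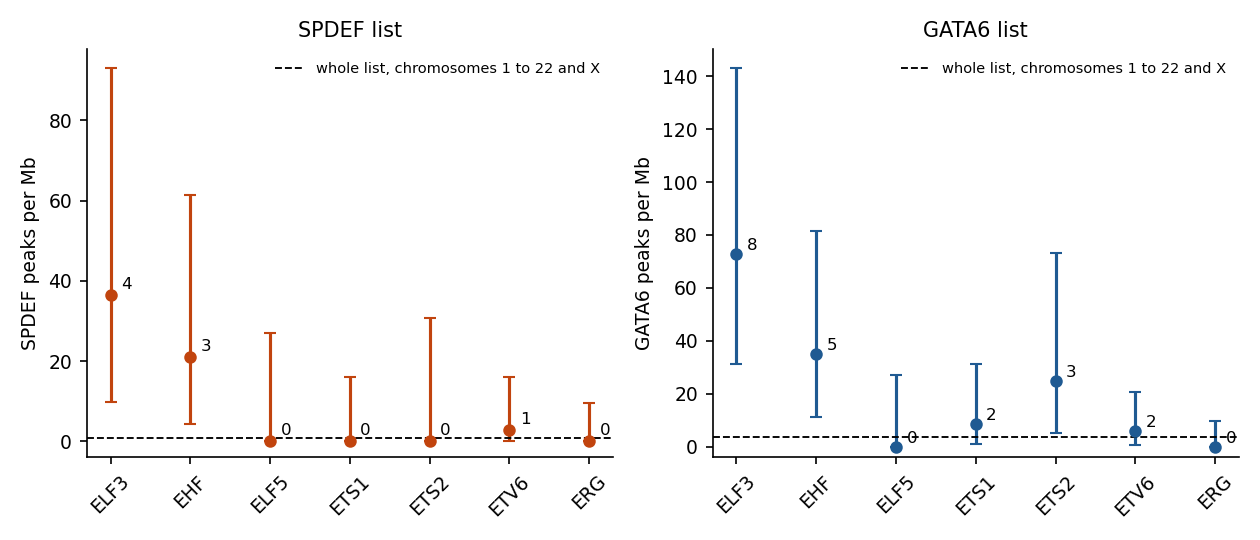
Peaks per Mb in the window of each gene for SPDEF (left panel) and GATA6 (right panel), with exact 95% Poisson intervals as bars, the number of peaks beside each point and the density over chromosomes 1 to 22 and X as a dashed line. ELF3 and EHF lie above the line in both panels with their whole interval, ETS2 in the GATA6 panel only, and ELF5 and ERG are at 0.

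The windows differ in length, so each was set beside all tiles of its own length along the genome that touch no centromere band, as a description without a test. In tiles of 110 kb, the length at ELF3, at least 1 SPDEF peak was present in 7.25% and at least 4, as at ELF3, in 0.248%. At least 1 GATA6 peak was present in 22.4% of those tiles and at least 8 in 0.158%, or 42 of 26633. In tiles of 143 kb, the length at EHF, at least 1 SPDEF peak was present in 9.08% and at least 3 in 0.772%, at least 1 GATA6 peak in 27.1% and at least 5 in 1.57%. Counts as high as those at ELF3 and, for GATA6, at EHF were thus uncommon among all tiles, which were not chosen for holding a gene. The 0.772% for SPDEF at EHF rests on 3 peaks within 905 bp, and without peaks under 100 bp, or with the wider 50% of peaks, EHF had 1.

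Counts at the other 5 genes were more common. For ETV6, 18.4% of tiles of 347 kb held at least 1 SPDEF peak, 46.3% at least 1 GATA6 peak and 28.1% at least 2. For ETS2, 7.76% of tiles of 120 kb held an SPDEF peak, 23.9% a GATA6 peak and 4.74% at least 3. For ETS1, 13.5% of tiles of 230 kb held an SPDEF peak, 36.6% a GATA6 peak and 19.4% at least 2. An SPDEF peak was present in 8.64% of tiles of 136 kb and in 19.8% of tiles of 383 kb, and a GATA6 peak in 25.9% and 48.6% of them, so that windows without a peak, as at ELF5 and ERG, were the common case. With tiles limited to those that also held a GATA6 peak, the share with an SPDEF peak was 26.9% at the length of ELF3 and 28.5% at that of EHF.

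The rest of the ETS family could be placed by cytogenetic band only, for want of their hg19 positions. Of the 21 other ETS genes, 16 lay in bands with more SPDEF peaks per Mb than the genome, or 14 of 19 distinct bands, against 33.8% of all 851 bands. For GATA6 the numbers were 12 of 21 genes and 12 of 19 bands, against 42.2% of all bands, with the band of ELF1 at 3.53 peaks per Mb only just above the genome's 3.51. The 7 genes fell in 5 bands, of which 4 were above the genome for SPDEF and 4 for GATA6. A band holds many genes, and all 851 bands were counted whatever they hold, so these shares compare unlike sets. The band counts also include the peaks near the 7 genes themselves. Of the 11 SPDEF peaks in 1q32.1, 4 were those near ELF3, which count for ELK4 too. Of the 6 in 11p13, 3 were those near EHF, and of the 3 in 12p13.2, 1 was that near ETV6. In 11q24.3, 0 of the 10 lay near ETS1. The band counts are thus not separate from the window counts. For SPDEF, the bands 6p21.31, 17q21.31 and 4q31.1 were only just above the genome (ratios 1.06, 1.10 and 1.10). The band 12q23.2 was just below it (0.997). The 19 bands included 3q27.2, that of ETV5, a factor of RAS-driven growth, with 7 SPDEF and 16 GATA6 peaks (ratios 5.12 and 3.04), and 6p21.31, that of SPDEF itself, with 3 and 6 (1.06 and 0.551). ELK4, a partner of serum response factor, shares the band of ELF3, and FLI1, a relative of ERG, that of ETS1. A band above the genome says nothing of the gene in it: 11q24.3 had an SPDEF ratio of 3.66 with 0 SPDEF peaks near ETS1.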

How the data were processed

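The tools MACS2 2.2.7.1, SAMtools 1.14, deepTools and Bowtie2 2.4.4 are listed without a role, per the submitters' processing notes, as are the builds hg19 and mm10. Each deposited list gives the chromosome, start and end of peaks and nothing else. How libraries were combined, the control and the threshold are not given in the sources used here, and each list was assigned to its target from its name. Chromosome lengths of hg38 were exceeded by 18 SPDEF and 29 GATA6 peaks and those of hg19 by 0.

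Gene extents in hg19, to 1 kb, came with the choice of genes. The genes, lists and motifs were chosen with earlier results of these data known. Strands came from RefSeq, and that of ETS1 from general knowledge. Positions count from 1. Genome density is over chromosomes 1 to 22 and X, and a band count takes peaks with their midpoint in the band. The text names all 7 genes, every SPDEF peak near them, each GATA6 peak overlapping one, and the widest and the nearest GATA6 peak of each gene; other peaks it gives were added after their values were seen. Wilson and exact Poisson intervals at 95% cover counting error only. No test was made. Family bands came from GRCh38.p14 positions, with band names taken as equal between builds. Window, overlap and tile counts were tested on simulated data and recovered the planted peaks. Python 3.11.15, numpy 2.4.6, scipy 1.17.1, matplotlib 3.10.9, R 4.3.3 and circlize 0.4.16 were used. The alternatives covered window size, peak placement, width, overlap rule, tiles and the density used as the base.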

Additional observations from a re-analysis of the deposited data

How the results depend on the processing

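No paired analysis was possible because the 3 libraries of a factor are represented by a single list of positions. For the same reason no replicate could be left out, and the lists hold no score, so width stood in for a stricter threshold. The 8 SPDEF and 20 GATA6 peaks became 3 and 13 with 10 kb on either side, 2 and 9 in gene bodies only, and 5 and 13 with the wider 50% of peaks. Fewer bases or peaks were then counted by construction. With 50% of both peaks covered, shares were 12.5% for SPDEF and 5.00% for GATA6. Under the other 6 alternatives run, shares ran from 80.0% to 100% and from 23.1% to 33.3%. Density ratios stayed from 3.23 to 7.46 for SPDEF and from 2.51 to 5.03 for GATA6, except without ELF3 and EHF, at 0.902 and 1.64. Leaving out genes and shifting tiles by 50% of their length were alternatives chosen after seeing the data. By gene, 7 of 42 SPDEF counts and 11 of 42 GATA6 counts moved by over 1.5 times, 6 and 9 of them down. Many of the others could not move. The 4 genes with 0 SPDEF peaks, and the 2 with 0 in both lists, had to stay at 0 except with 100 kb on either side. The 3 SPDEF peaks of EHF became 0 with 10 kb or the gene body only, and 1 with the wider 50% or without peaks under 100 bp. They stayed 3 with 100 kb and by midpoint. The limit is the number of peaks: with depth unknown, a gene without a peak is a gene where none was listed, not one shown to be unbound.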
